A study of Ovis aries with 23 samples.

Results

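OLFM4 and CD177, 2 genes known as markers of neutrophil subsets, were measured in lung tissue of 23 sheep with experimental acute respiratory distress syndrome (ARDS). They are 2 of the 20 features deposited from a custom nCounter panel, which counts hybridized probe pairs without amplification. In the deposited table they stand as T002 and T026. The probe list of the panel has 22 probe pairs, and which of them have no row is not settled. The table lists tags, not genes. The names come from the order of the probe list in the supplement, where OLFM4 is 2nd and CD177 16th, and no table used here pairs a tag with its gene. A probe without a row ahead of the 16th place would move the name CD177 to another row. Under this naming, the unadjusted exact Mann-Whitney p between the injury groups described below rounds to the p that the authors print for CD177 (0.12). The same holds for ANKRD22 (0.31) and SULF2 (0.02), which stand just ahead of it, and for GPR84 (0.009) and CEACAM1 (0.007). It holds for every gene with a printed p except OLFM4 and LCN2. The animals were Merino-Dorset crossbreed ewes, not pregnant and 1 to 3 years old, kept under anesthesia on mechanical ventilation. The 14 Ph1 animals (hypoinflammatory) received intravenous oleic acid, and the 9 Ph2 animals (hyperinflammatory) received oleic acid followed by intravenous lipopolysaccharide of E. coli. Tissue was taken at 6 h (5 Ph1 and 3 Ph2 animals), 12 h (4 and 3) or 24 h (5 and 3), and RNA of 3 lobes of the right lung was pooled per animal. The animals were controls or pilot animals of 2 trials, CELTIC (12 animals) and STARDUST (11 animals), and all 8 animals at 24 h belonged to STARDUST. Every animal was injured, so no value here can be set against an uninjured lung.

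OLFM4 encodes olfactomedin 4, a secreted glycoprotein that neutrophils store in their specific granules and that only some neutrophils of an individual carry. CD177 encodes a glycoprotein anchored in the neutrophil membrane, which is likewise present on only a part of the cells, binds the endothelial adhesion molecule PECAM1 and holds proteinase 3 at the cell surface. Transcripts of granule proteins are made mostly while neutrophils mature in the bone marrow. In whole tissue, fewer cells of a type and less RNA per cell cannot be told apart, and the panel holds no defining marker of epithelium, endothelium or lymphocytes.

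The capture probes are shown because they fix which stretch of each transcript was counted. Each is given 5′ to 3′, with the start that all 22 capture probes of the panel share in lower case and the 50 gene-specific bases in capitals.
OLFM4 capture probe: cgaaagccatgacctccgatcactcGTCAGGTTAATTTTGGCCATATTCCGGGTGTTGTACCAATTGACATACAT
CD177 capture probe: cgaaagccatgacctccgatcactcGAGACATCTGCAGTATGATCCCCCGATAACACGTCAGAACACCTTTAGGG
The transcript stretches that these bases pair with are their reverse complements.
OLFM4 transcript stretch: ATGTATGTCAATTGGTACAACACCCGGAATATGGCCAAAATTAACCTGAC
CD177 transcript stretch: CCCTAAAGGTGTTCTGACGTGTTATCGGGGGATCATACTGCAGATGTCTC
The second probe of each pair is the reporter probe, and the reporter tags of the assay were separate from these oligonucleotides.
OLFM4 reporter probe: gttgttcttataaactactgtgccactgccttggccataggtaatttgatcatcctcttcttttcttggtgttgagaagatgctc
CD177 reporter probe: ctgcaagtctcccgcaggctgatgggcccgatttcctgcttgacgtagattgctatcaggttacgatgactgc
G and C made up 40% of the specific bases for OLFM4 and 50% for CD177. The longest run of bases that either capture probe shared with a probe of another gene on the panel was 8, so no long stretch is common to the pair. Probes differ in how well they hybridize, so the level of one gene was not set against the level of the other.

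The deposited values are log2 normalized counts, and the unlogged values of each animal were whole numbers times 1 factor. The smallest whole numbers that fitted were taken as counts, and they summed over the 20 features to between 13871 and 34415 per animal. Counts of OLFM4 ran from 4 to 1316 in single animals, with a median of 53, and those of CD177 from 6 to 41, with a median of 22. OLFM4 thus ran over a 370-fold range of normalized counts between animals and CD177 over a 5.22-fold range. The SD of OLFM4 over the 23 animals was 2.17 on the log2 scale, the widest of the 20 features, and that of CD177 was 0.65, the 9th widest. Counting error alone gives an SD of 0.32 for OLFM4 and 0.34 for CD177 at these counts. The features T007 and T011 had the lowest median counts of the 20 features (7 and 8). By the order of the probe list, they are the 2 genes that the authors left out for counts under the detection limit. OLFM4 did not exceed the higher of the 2 in 3 animals (C18, SD8 and SD11), and CD177 did not in 4 (C21, SD7, SD1 and SD11). Of the 3 Ph2 animals at 24 h, SD8 and SD11 are thus at that level for OLFM4. All intervals cover counting error only.

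**Figure D1:**
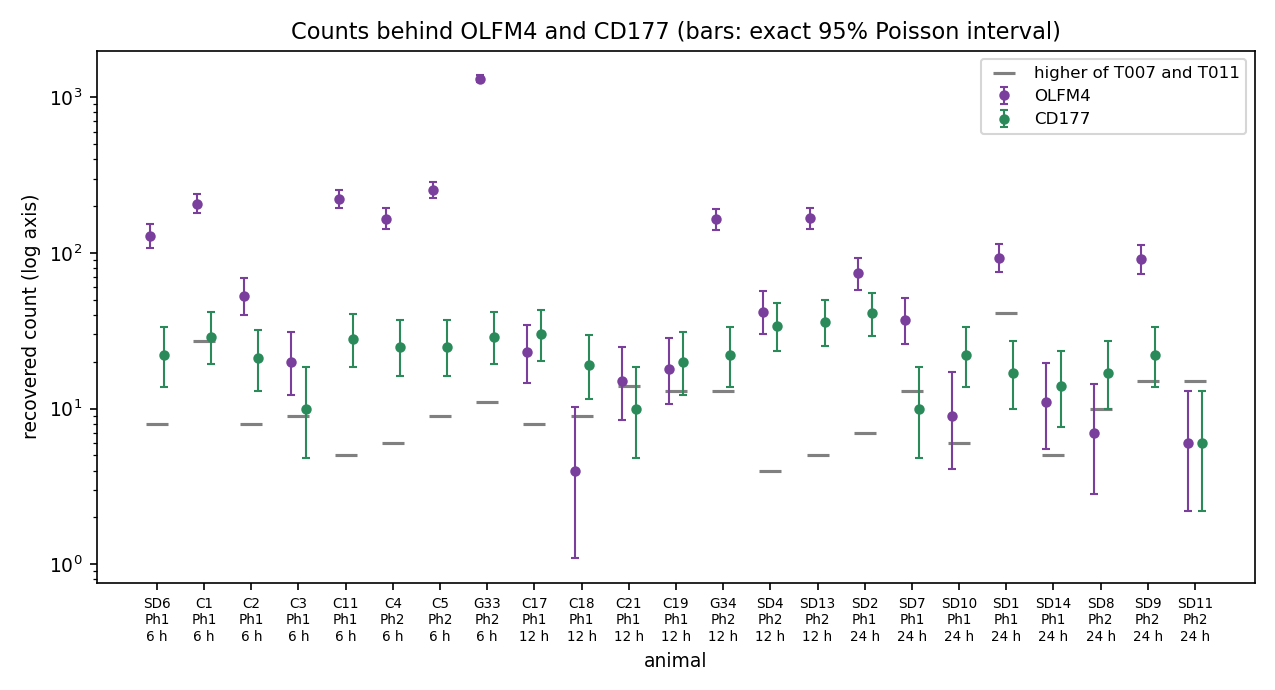
Recovered counts of OLFM4 (purple) and CD177 (green) in each of the 23 animals on a log axis, with exact 95% Poisson intervals, and the higher of the low features T007 and T011 as a grey dash. OLFM4 runs from 4 counts in C18 to 1316 in G33, while CD177 stays between 6 and 41.

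OLFM4 was highest in Ph2 animals at 6 h, where C4, C5 and G33 had log2 normalized counts of 7.38, 8.22 and 10.64. The Ph1 animals at 6 h had 6.95 (SD6), 7.42 (C1), 5.55 (C2), 4.33 (C3) and 7.95 (C11). G33 and C5 lay above all Ph1 animals at this time, and C4 lay within their range. At 12 h, the Ph2 animals G34, SD4 and SD13 had 7.85, 5.04 and 7.15. The Ph1 animals C17, C18, C21 and C19 had 4.40, 2.11, 4.07 and 4.33, so that all 3 Ph2 animals stood above all 4 Ph1 animals. The Ph1 value of C18 rests on 4 counts, with an exact 95% Poisson interval of 1.09 to 10.2 counts. At 24 h, SD8, SD9 and SD11 of Ph2 had 2.52, 6.47 and 2.75, and SD2, SD7, SD10, SD1 and SD14 of Ph1 had 5.52, 4.88, 2.96, 6.29 and 3.65. At this time SD9 was the highest and SD8 and SD11 were the lowest of all 8 animals.

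In order of their means, the groups were Ph2 at 6 h (8.75 ± 1.69, SD, n = 3), Ph2 at 12 h (6.68 ± 1.46, n = 3), Ph1 at 6 h (6.44 ± 1.48, n = 5), Ph1 at 24 h (4.66 ± 1.36, n = 5), Ph2 at 24 h (3.91 ± 2.21, n = 3) and Ph1 at 12 h (3.73 ± 1.09, n = 4). Ph2 at 6 h was further from Ph2 at 12 h, and Ph1 at 6 h further from Ph1 at 24 h, than the larger SD of each pair (differences of 2.07 and 1.78). The other neighbours in this order lay closer together than that SD.

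**Figure D2:**
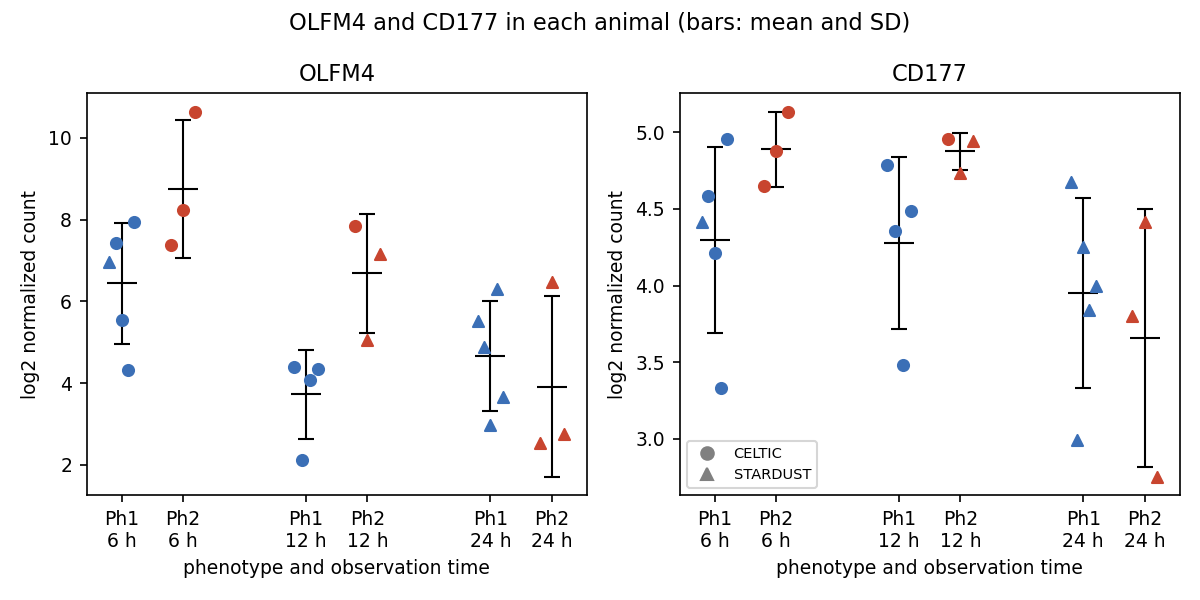
Log2 normalized counts of OLFM4 (left) and CD177 (right) in each animal by phenotype and observation time, with circles for CELTIC, triangles for STARDUST, and bars for mean and SD. At 12 h all Ph2 animals lie above all Ph1 animals for OLFM4, from 5.04 against at most 4.40, and at 24 h the phenotypes overlap for both genes.

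Whether OLFM4 differed between the phenotypes was compared first over all observation times. OLFM4 averaged 6.45 ± 2.62 in the 9 Ph2 animals and 5.03 ± 1.69 in the 14 Ph1 animals (mean ± SD). The means were thus 1.42 apart, or 2.67-fold, with an exact two-sided Mann-Whitney U p = 0.159 and 0.319 after Benjamini-Hochberg correction for all 20 features. OLFM4 was above the median of Ph1 in 7 of 9 Ph2 animals. In this comparison 15% of the 20 features had an unadjusted p below 0.05, and neither OLFM4 nor CD177 was among them. Leaving out 1 animal, the difference was 0.89 without G33 and 1.91 without SD8. With the 24 h animals left out it was 2.48 (exact unadjusted p = 0.0360).

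Within observation times, the OLFM4 mean of Ph2 minus that of Ph1 was 2.31 at 6 h (4.95-fold, p = 0.143 by the exact Mann-Whitney U test), 2.96 at 12 h (7.76-fold, p = 0.0571 by the same exact test) and -0.75 at 24 h (p = 0.571 by the same exact test). The adjusted p over the 60 pairs of feature and time was 0.536, 0.536 and 0.927. With values raised to the higher of T007 and T011 in the same animal, the 24 h difference was -0.14 (exact p = 1). At 12 h, 0.0571 is the smallest p that the exact two-sided rank test can give with so few animals, while an exact permutation test of means gave p = 0.0286. The phenotypes did not overlap at 12 h in 30% of the 20 features, so the separation of OLFM4 is shared with 5 other features. The Ph1 group of 12 h consists of CELTIC animals alone, and of its Ph2 counterpart only G34 was a CELTIC animal. The value of G34 alone, 7.85, was above every CELTIC Ph1 animal of that time, but phenotype and study are not separated for SD4 and SD13.

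**Figure D3:**
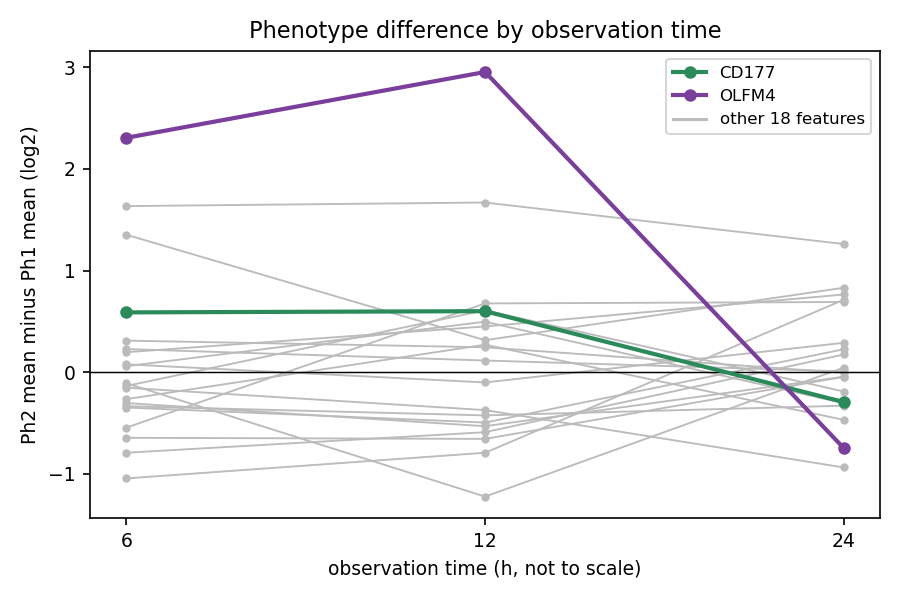
Mean of Ph2 minus mean of Ph1 on the log2 scale at 6, 12 and 24 h for OLFM4 (purple), CD177 (green) and the other 18 features (grey). OLFM4 has the highest positive differences at 6 h (2.31) and 12 h (2.96), and both genes are below 0 at 24 h.

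The change of the OLFM4 difference with time was tested directly in limma, with an interaction term of phenotype with time. The difference at 24 h was lower than at 6 h by an interaction term of -3.06 ± 1.46 (SE), and both interaction terms together had an unadjusted p of 0.0465 and an adjusted p of 0.660 over the 20 features (limma, moderated F). In that model 5% of features had an unadjusted p below 0.05. The unadjusted p was above 0.05 when any of 11 single animals was left out, and 0.163 without SD8. Without SD8, the difference at 24 h was -0.054.

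Within Ph2, OLFM4 was lower at 24 h than at 6 h by a mean difference of -4.84, and the 3 time points differed with an unadjusted p of 0.0286 (exact permutation Kruskal-Wallis test, adjusted p = 0.571). This was the case for 5% of the features in Ph2. Leaving out any of C5, G33, SD13, SD8 or SD11 moved the exact p to between 0.0929 and 0.100. Within Ph1 the difference between 24 and 6 h was -1.78 (exact permutation Kruskal-Wallis test, p = 0.0612, adjusted p = 0.204; 20% of features had an unadjusted p below 0.05). A permutation F test of means gave p = 0.0349 in Ph1 (25% of features had an unadjusted p below 0.05 by this test), and the Kruskal-Wallis test gave an exact permutation p of 0.0134 without C3. The lowest Ph1 level was at 12 h, not at 24 h.

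The OLFM4 difference was also taken within each trial. In CELTIC, the 4 Ph2 animals averaged 8.52 ± 1.45 and the 8 Ph1 animals 5.02 ± 1.90 (mean ± SD), which is 3.50 apart (unadjusted p = 0.0283 by the exact rank test). Phenotype and time are mixed in this comparison, since 3 of the 4 Ph2 but 4 of the 8 Ph1 animals were observed at 6 h. At 6 h alone, the CELTIC difference was 2.43 (exact p = 0.229). In STARDUST, the 5 Ph2 animals averaged 4.79 ± 2.11 and the 6 Ph1 animals 5.04 ± 1.53, with a difference of -0.26 (p = 0.931 by the exact rank test). The interaction of phenotype and study was -3.76 ± 1.45 (SE), with an unadjusted p of 0.0168 and an adjusted p of 0.335 in limma, and an unadjusted p of 0.0528 without G33. In that model 5% of features had an unadjusted p below 0.05. Total counts had a median of 16183.5 in CELTIC and 21902 in STARDUST. The RNA integrity numbers that the authors list per lobe were mostly higher in STARDUST. G33 had the highest of the CELTIC animals in each lobe, and the upper lobes of C19 and SD4 were below the authors' limit. The authors also name another flock and sample age for the second trial. The part of depth, RNA integrity, flock or sample age in these values was not tested. Where a time point held animals of both trials within 1 phenotype, the STARDUST animal SD6 at 6 h (6.95) lay inside the range of the 4 CELTIC Ph1 animals (4.33 to 7.95), and SD4 and SD13 at 12 h (5.04 and 7.15) lay below G34 (7.85). Whether the study or the time of 24 h goes with the lower difference cannot be told apart.

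CD177 had a narrow range, which rests on few counts. At 6 h the Ph2 animals C4, C5 and G33 had log2 normalized counts of 4.65, 4.88 and 5.13, and the Ph1 animals SD6, C1, C2, C3 and C11 had 4.41, 4.59, 4.21, 3.33 and 4.96. G33 of Ph2 lay above all Ph1 animals, and C4 and C5 lay within the Ph1 range, below C11. At 12 h, G34, SD4 and SD13 of Ph2 had 4.95, 4.74 and 4.94, against 4.79, 4.35, 3.48 and 4.49 in C17, C18, C21 and C19 of Ph1. Here C17 was the only Ph1 animal above a Ph2 animal, SD4. At 24 h, SD8, SD9 and SD11 of Ph2 had 3.80, 4.42 and 2.75, and SD2, SD7, SD10, SD1 and SD14 of Ph1 had 4.67, 3.00, 4.25, 3.84 and 4.00. SD11, the lowest of all animals, had 6 counts, with an exact 95% Poisson interval of 2.20 to 13.1.

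The order of the CD177 means was Ph2 at 6 h (4.89 ± 0.24, SD, n = 3), Ph2 at 12 h (4.88 ± 0.12, n = 3), Ph1 at 6 h (4.30 ± 0.61, n = 5), Ph1 at 12 h (4.28 ± 0.56, n = 4), Ph1 at 24 h (3.95 ± 0.62, n = 5) and Ph2 at 24 h (3.66 ± 0.84, n = 3). No neighbours in this order were further apart than the larger of their SDs. In Ph2 at 12 h the SD of 0.12 was below the 0.27 that counting error alone gives at 22 to 36 counts.

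Over all observation times, CD177 averaged 4.47 ± 0.76 in the 9 Ph2 and 4.17 ± 0.58 in the 14 Ph1 animals (mean ± SD). The difference of 0.30, or 1.24-fold, had an exact Mann-Whitney U p = 0.124, and 0.311 after correction for all 20 features. CD177 was above the median of Ph1 in 7 of 9 Ph2 animals. The means were apart by 0.52 without SD11 (exact p = 0.0292) and by 0.59 without the 24 h animals (exact p = 0.0176). The difference at 6 h was 0.59 (exact p = 0.143), and that at 12 h was 0.60 (exact p = 0.114). At 24 h it had the opposite sign, -0.30 (exact p = 0.571), and was 0.16 without SD11. In CELTIC the difference was 0.63 (p = 0.0485 by the exact rank test) and in STARDUST 0.10 (p = 0.662 by the exact rank test). Phenotype and time are mixed in CELTIC, as for OLFM4, and at 6 h alone the CELTIC difference was 0.62 (exact p = 0.229). The p values of these subsets are unadjusted.

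For CD177, the interaction of phenotype with time point had an unadjusted p of 0.238 in limma (term at 24 h, -0.88 ± 0.58, SE) and that with study an unadjusted p of 0.324 (-0.53 ± 0.52, SE). Differences between observation times had an exact permutation Kruskal-Wallis p of 0.0714 within Ph2 (0.0250 without G33) and 0.572 within Ph1. An exact permutation F test of means gave p = 0.0357 within Ph2 (adjusted p = 0.429; 10% of features had an unadjusted p below 0.05 by this test). The mean difference between 24 and 6 h was -1.23 in Ph2 and -0.35 in Ph1. After each animal's median over the 20 features was subtracted, it was -0.42 (exact permutation Kruskal-Wallis p = 0.168) and -0.10.

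OLFM4 and CD177 were correlated over the animals. Over the 23 animals, Spearman's rho was 0.73 (permutation test with 100000 resamples, p = 0.00013) and Pearson's r 0.63 (permutation p = 0.00100). Of the 190 pairs of features this rho was the 2nd highest, with an adjusted p of 0.00617 over all pairs, and 4.21% of pairs had an adjusted p below 0.05. Without G33 and C18, the animals farthest from the OLFM4 median, rho was 0.72 and r 0.65 (permutation p = 0.00034 and 0.00131). With each animal left out in turn, rho lay between 0.69 and 0.77.

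Within the groups of the study, the relation had p below 0.05 in Ph2 and not in Ph1. Spearman's rho was 0.83 in the 9 Ph2 animals (exact permutation p = 0.00827) and 0.39 in the 14 Ph1 animals (permutation p = 0.164), and r was 0.84 and 0.31 (permutation p = 0.00148, exact, and 0.274). The difference between these coefficients was not tested. Both sets span all observation times, and the permutations ignored them. From 6 to 24 h, OLFM4 and CD177 both fell, by mean changes of -4.84 and -1.23 in Ph2 and -1.78 and -0.35 in Ph1. The part of time in each of these coefficients was not tested. Spearman's rho was 0.85 in CELTIC and 0.68 in STARDUST (permutation p = 0.0008 and 0.0249), and r 0.66 and 0.55 (permutation p = 0.0167 and 0.0825). When the mean of each phenotype and time point was subtracted, rho was 0.52 and r 0.48 (permutation p = 0.0114 and 0.0189). Both values of an animal share its normalization factor. After subtraction of each animal's median over the 20 features, rho was 0.64 (permutation p = 0.00119).

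**Figure D4:**
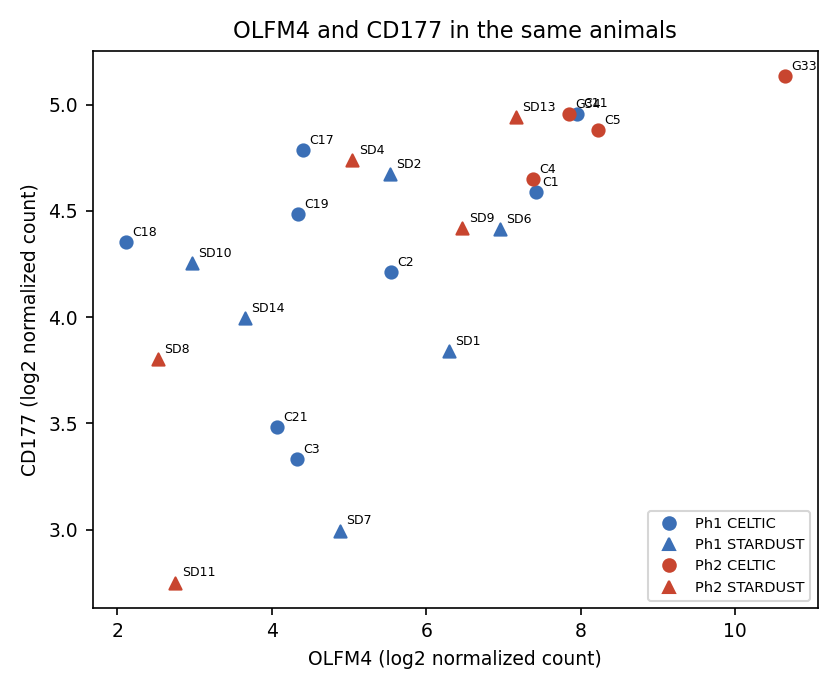
CD177 against OLFM4 (log2 normalized counts) in the 23 animals, coloured by phenotype (blue Ph1, red Ph2) with circles for CELTIC and triangles for STARDUST. G33, at 10.64 and 5.13, is highest for both genes, SD11 is lowest for CD177 at 2.75, and rho over all animals is 0.73.

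The 3 features most like OLFM4 by Spearman's rho over the 23 animals were CD177 (0.73), MMP8 (0.68), a collagenase of neutrophil specific granules, and the unnamed feature T037 (0.56). The same features came next to CD177, with a rho of 0.73 for OLFM4, 0.57 for MMP8 and 0.55 for T037. After the mean of each phenotype and time point was subtracted, rho with MMP8 was 0.50 for OLFM4 and 0.17 for CD177. The low feature T011 then stood highest for OLFM4 (0.58), ahead of CD177 (0.52), and RETN (0.47) and ANKRD22 (0.37) stood ahead of MMP8 for CD177. T037 stands at the 18th place of the table, beyond the genes of interest. In the probe list only housekeeping genes follow there, some of which served for normalization. By that order T037 is a housekeeping gene, but which of them is not settled.

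**Figure D5:**
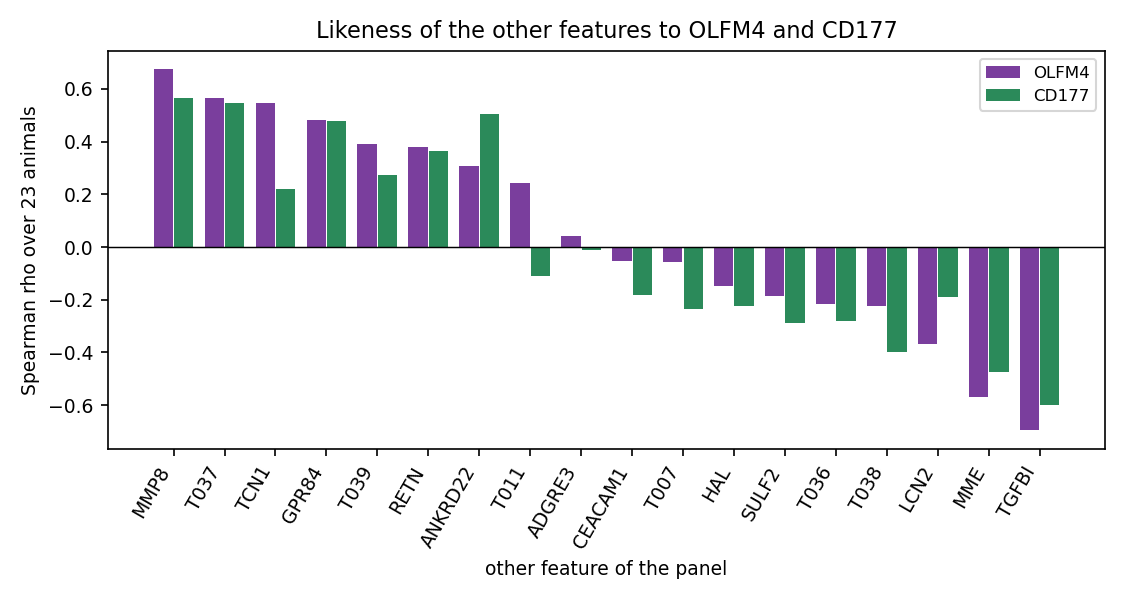
Spearman's rho of each of the other 18 features with OLFM4 (purple) and with CD177 (green) over the 23 animals. MMP8 stands highest for both (0.68 and 0.57), and LCN2 has a rho below 0 with both (-0.37 and -0.19).

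The other transcripts of neutrophil granule proteins on the panel, named by the same order of probes, were compared as a list. Their median counts were 26 for MMP8, 773 for RETN, 2012 for TCN1 and 2871 for LCN2. With MMP8, Spearman's rho was 0.51 for TCN1, 0.19 for RETN and -0.54 for LCN2. Which cells of the lung these transcripts came from was not tested. Of MMP8, LCN2 (lipocalin 2, which binds bacterial siderophores), TCN1 (a vitamin B12 carrier) and RETN (resistin), 0 of 4 had an unadjusted p below 0.05 between Ph2 and Ph1 (exact Mann-Whitney U test). All 4 had a higher mean in Ph2, as had 11 of all 20 features, by 0.83 for MMP8, 0.22 for TCN1, 0.081 for LCN2 and 0.060 for RETN. The sign was not stable for 3 of them: a limma fit blocked on both time and trial gave -0.046 for LCN2 and -0.0015 for RETN, and at 6 h alone TCN1 differed by -0.55. The median difference of the list was 0.15, against 0.068 over all 20 features. With OLFM4, rho was 0.55 for TCN1, 0.38 for RETN and -0.37 for LCN2, and with CD177 it was 0.22, 0.36 and -0.19. Of 4 myeloid surface molecules, 1 was higher in Ph2 and 1 lower by the unadjusted test (15% of the 20 features passed it), with a median difference of -0.39. GPR84, a receptor for medium-chain fatty acids, differed by 1.52 (exact p = 0.00857), and CEACAM1, an adhesion molecule, by -0.37 (exact p = 0.00689), both with an adjusted p of 0.0857 over the 20 features. MME (neprilysin, CD10) and ADGRE3 differed by -0.49 and -0.40 (exact p = 0.0622 and 0.0534). MME had a median count of 5605 and a rho of -0.78 with MMP8, and its cells of origin were likewise not tested.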

How the data were processed

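Expression of OLFM4 and CD177 was analysed in 23 sheep, grouped by the sample labels. The deposited values are log2 normalized counts, which the authors made in nSolver and its Advanced Analysis plugin by subtracting a background (negative control mean plus 2 SD), scaling to the housekeeping genes POLR2A, RPL19 and TBP by their geometric mean, and a log2 transformation. Whether the background was subtracted from the deposited values cannot be read from them. The smallest whole numbers proportional to the unlogged values (tolerance 0.0001) served as counts. They summed to 13871 to 34415 per animal, and counts as low as 4 (OLFM4) and 6 (CD177) limit the precision. Intervals are exact 95% Poisson intervals.

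Tests were the two-sided Mann-Whitney U test in its exact form for phenotypes, for time points an exact permutation Kruskal-Wallis test over 252252 (Ph1) or 1680 (Ph2) splits, limma for interactions, and permutation for correlations, exact below 10 animals. Benjamini-Hochberg adjustment covered all features. Tests were checked on simulated data. Alternatives covered tests, blocks, studies, centring, scaling to the total, low values and leaving out each animal. The members, the gene lists and the rule for named genes (both members in full and the 3 features most like each by rho) were chosen with earlier results of these data known. By the labels each sample is 1 animal, so errors are the spread between animals. Coordinates are not given, since no genome build is named for the assay; both symbols are protein-coding genes in the RefSeq table. Software was limma 3.58.1 under R 4.3.3, and scipy 1.17.1 and numpy 2.4.6 under Python 3.11.15.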

Additional observations from a re-analysis of the deposited data

Results flagged for a closer look

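OLFM4 in C18 was 2.11 among the Ph1 animals at 12 h, apart from the other 3 (4.07 to 4.40) by Dixon's ratio. It was the 1 group of 8 tested for the 2 genes in which an animal stood apart. Chance gives about 1 in 20 for each group tested, so 1 among 8 groups is not unusual. The 9 Ph2 animals were tested as 1 group over all observation times. The value rests on 4 counts, and T007 had 9 counts in the same animal. The interaction of phenotype with time for OLFM4 passed only before correction (limma, unadjusted p = 0.0465, adjusted p = 0.660), with a difference between Ph2 and Ph1 above 0 at 6 and 12 h and below 0 at 24 h. The same holds for its interaction with study (limma, unadjusted p = 0.0168, adjusted p = 0.335), with 3.50 in CELTIC and -0.26 in STARDUST. The 2 interactions cannot be told apart, because every animal at 24 h came from STARDUST.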

How the results depend on the processing

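Values are differences between Ph2 and Ph1 (log2) unless named otherwise, and the cause of a change was not tested. The OLFM4 difference over all animals was 1.42; it passed an unadjusted p of 0.05 in limma with time points as blocks (1.46), in CELTIC (3.50) and without the 24 h animals (2.48), and turned to -0.26 in STARDUST. That of CD177 was 0.30 and passed in CELTIC (0.63) and without the 24 h animals (0.59). The test of means over all animals was planned with 100000 resamples and was run over every split instead. Under a test of means, OLFM4 passed at 12 h (2.96) and between time points in Ph1 (24 minus 6 h, -1.78), and CD177 between time points in Ph2 (-1.23). Centred on the median of all features, the time course of OLFM4 in Ph2 (-4.02) and its interaction with time point (-2.49) no longer passed. The same centring moved CD177 to 0.24 at 6 h, -0.080 at 24 h and -0.42 between time points in Ph2, and its interactions to -0.32 (time point) and -0.14 (study). With low values raised, the OLFM4 difference at 24 h was -0.14. Spearman's rho was 0.39 in Ph1 alone.

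With each animal left out, OLFM4 differed by 0.89 to 1.91 over all times, 1.36 to 2.99 at 6 h, 2.37 to 3.78 at 12 h and -2.03 to -0.054 at 24 h. CD177 differed by 0.21 to 0.52, 0.35 to 0.75, 0.33 to 0.77 and -0.68 to 0.16 (reversed at 24 h, 0.16, without SD11). From 6 to 24 h, OLFM4 changed by -2.31 to -1.35 in Ph1 and -6.11 to -3.89 in Ph2, and CD177 by -0.59 to -0.11 and -1.61 to -0.78. The interaction with time point was -4.33 to -2.11 for OLFM4 and -1.26 to -0.43 for CD177, and with study -4.35 to -3.06 and -0.74 to -0.18. Spearman's rho was 0.69 to 0.77. In all, 289 of the alternatives kept direction and side of the threshold, 2 were reversed, 11 passed where the main value did not and 20 no longer passed. No paired analysis was possible because the labels link no animal of one group to an animal of another. With 4 and 3 animals at 12 h, the exact two-sided rank test cannot give a p below 0.0571, and counts of 10 or fewer leave the lowest values imprecise.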

Other observations

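The gene with the strongest inverse relation to both members was TGFBI, an extracellular matrix protein made by macrophages and stromal cells, which was singled out after its values were seen. Spearman's rho with TGFBI was -0.70 for OLFM4 and -0.60 for CD177 over the 23 animals (permutation test, adjusted p = 0.0103 and 0.0510 over the 190 pairs of features), and -0.48 and -0.25 after the mean of each phenotype and time point was subtracted. MME had a rho of -0.57 with OLFM4 and -0.47 with CD177. In SD1, the animal with the highest OLFM4 of Ph1 at 24 h (6.29), CD177 was 3.84 and the low features T007 and T011 had 16 and 41 counts, the highest of T007 and of T011 in any animal.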
